A study of Mus musculus with 9 samples.

Results

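Transcripts of 5 secreted cytokine genes were followed in BV2, an established immortalized line of mouse microglia, through a response to bacterial lipopolysaccharide (LPS). The genes were Il6, Osm and Lif, which encode interleukin-6, oncostatin M and leukemia inhibitory factor, and Csf3 and Csf2, which encode the granulocyte and the granulocyte-macrophage colony-stimulating factor. They were chosen by gene symbol, and all 5 were found among the 6462 genes of the deposited expression table. A mean of at least 1 FPKM over all libraries, the level required for the main test, was reached by Il6, Osm and Csf3, that is by 3 of the 5. FPKM counts sequenced fragments relative to the length of the transcript and the size of the library, so levels of different genes are compared per length.

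The cells were untreated (0 h) or had received LPS at 200 ng/ml for 1 h or 12 h, and each of these 3 groups had 3 RNA sequencing libraries, 9 in all. The labels name no genetic change in any group. The study concerned the kinase PLK2 in the activation of microglia. All untreated cells were harvested at 0 h, and exposure to LPS therefore cannot be told apart from time in culture. BV2 is 1 established line, and since no label states that the libraries of a group are separate cultures, p-values here measure the spread among these libraries alone. RNA was taken from whole cultures, in which fewer cells that express a gene and less of its RNA per cell cannot be told apart.

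Interleukin-6, oncostatin M and leukemia inhibitory factor belong to the interleukin-6 cytokine family, whose receptors share the signaling chain gp130, encoded by Il6st. Each ligand also uses partner chains of its own, and the assembled receptor activates JAK kinases, which phosphorylate STAT transcription factors, above all STAT3. SOCS3 is induced by STAT3 and switches gp130 signaling off again. The granulocyte factor acts through Csf3r on neutrophils and their precursors and also uses STAT3, whereas the granulocyte-macrophage factor acts on myeloid cells through Csf2ra and the common β chain and uses STAT5. In microglia and macrophages LPS is sensed by Toll-like receptor 4, and NF-κB is a main inducer of cytokine genes. Most mRNAs of such cytokines are short-lived, and AU-rich elements in their 3′ untranslated regions are bound by proteins that degrade or protect them.

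The deposited table annotates all 5 genes to the same pathways, cytokine-cytokine receptor interaction and JAK-STAT signaling. RefSeq places 4 of them on mouse chromosome 11 and Il6 on chromosome 5, and Osm and Lif are next to each other in the order of protein-coding genes. Promoter sequence of the RefSeq table (build GRCm38.p6) was matched for 3 of the 5 genes, Il6, Lif and Csf2. The 250 bases before the annotated start are shown for a late gene, Il6 (chr5:30012864-30013113, plus strand), and an early gene, Lif (chr11:4257318-4257567, plus strand), 5′ to 3′, with capitals on every match to the searched motifs.
Il6: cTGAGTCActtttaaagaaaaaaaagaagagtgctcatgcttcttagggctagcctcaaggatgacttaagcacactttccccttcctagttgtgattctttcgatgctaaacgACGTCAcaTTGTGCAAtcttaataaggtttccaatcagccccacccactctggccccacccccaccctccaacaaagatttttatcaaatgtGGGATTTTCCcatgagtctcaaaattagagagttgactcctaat
Lif: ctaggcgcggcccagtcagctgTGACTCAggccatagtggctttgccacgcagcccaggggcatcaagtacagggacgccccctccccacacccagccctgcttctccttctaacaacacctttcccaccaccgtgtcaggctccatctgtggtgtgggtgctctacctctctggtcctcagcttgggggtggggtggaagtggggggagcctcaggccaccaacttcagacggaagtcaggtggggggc
Capitals mark, on either strand, the κB consensus, TTNNGNAA (a C/EBP-type site), TGANTCA (an AP-1-type site) and TGACGT (a CRE core), none of which overlap in these windows. In the Il6 window the κB match lies 44 to 35 bases before the start, the C/EBP-type match 128 to 121, the CRE core 136 to 131 on the minus strand and the AP-1-type match 249 to 243. The Lif window holds an AP-1-type match 228 to 222 bases before the start and no match to the other motifs, and the Csf2 window holds a C/EBP-type match on the minus strand, 145 to 138 bases before its start. Of 32851 promoter windows of this length, 3.90% hold the κB consensus, 36.9% the C/EBP-type motif, 6.75% the AP-1-type motif and 6.47% the CRE core. These are matches of letters, and binding was not measured.

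All 5 transcripts hold the pentamer ATTTA, the core of AU-rich elements, in the annotated 3′ untranslated region, and the pentamer is common. It occurs 6 times in the 427 bases of Il6, 6 times in the 669 bases of Csf3, 6 times in the 1017 bases of Osm, 7 times in the 3180 bases of Lif and 9 times in the 317 bases of Csf2. Among untranslated regions of like length (within 20%), at least 1 pentamer was found in 45.8% for Il6, 59.7% for Csf3, 75.07% for Osm, 96.97% for Lif and 38.05% for Csf2. In the same regions, as many were found in 0.432% of 1850 for Il6, 1.76% of 2272 for Csf3, 5.04% of 2680 for Osm, 38.7% of 2148 for Lif and 0.0584% of 1711 for Csf2. The longer motif TTATTTATT occurs 4 times in Csf2 and 2 times in Lif, and was not found in the other 3. The 30 bases with the most pentamers are shown for each gene, on the sense strand and 5′ to 3′, with the pentamers in capitals: Il6 at chr5:30019691-30019720, Csf3 at chr11:98702995-98703024, Osm at chr11:4240952-4240981 and Lif at chr11:4272414-4272443, all on the plus strand, and Csf2 at chr11:54247324-54247353 on the minus strand (build GRCm38, GENCODE annotation).
Il6: ATTTAttgataATTTAaataagtaaacttt
Csf3: tatctctATTTAatATTTAtgcatATTTAa
Osm: tttataaggcctATTTAtaatgtatATTTA
Lif: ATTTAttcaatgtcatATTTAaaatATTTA
Csf2: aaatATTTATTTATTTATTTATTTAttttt
In Csf2 the pentamers overlap into 1 continuous run, while in the other 4 windows they stand apart. The transcript used for Csf3 is the longest annotated one, since its accession in the deposited table was not matched in that annotation.

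The genes divided by time. Osm and Lif stood highest at 1 h and lower at 12 h, whereas Il6 and Csf3 were low at 1 h and reached their highest level at 12 h. Csf2 stayed close to the limit of detection throughout. At 1 h Il6 had reached 4.99% and Csf3 1.51% of the mean FPKM that they had at 12 h, whereas Osm stood at 118.5% and Lif at 299.5% of theirs.

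**Figure D1:**
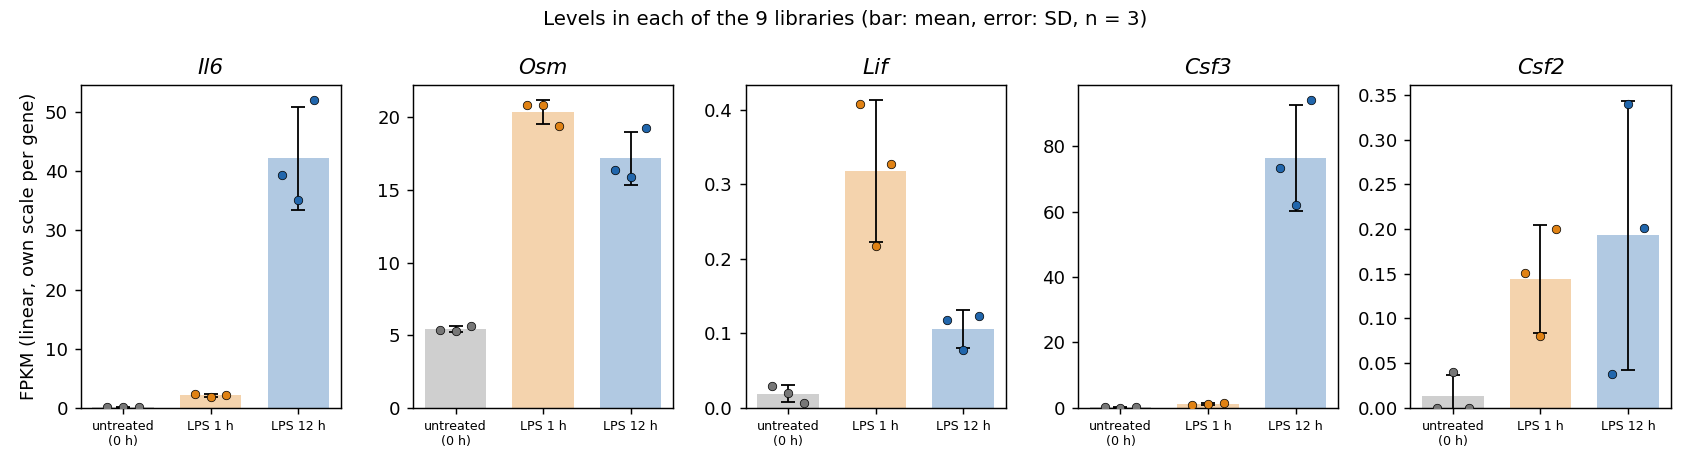
FPKM of the 5 genes in each of the 9 libraries, by group (untreated, LPS 1 h, LPS 12 h), on a linear scale of its own for each gene, with points for libraries, bars for the group mean and error bars for the SD (n = 3). Osm and Lif are highest at 1 h and Il6 and Csf3 at 12 h, where Csf3 spans 62.1 to 94.0 FPKM and Il6 35.2 to 52.0 FPKM.

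Il6, the founding member of the family and an inducer of the acute phase response, had 0.195, 0.0615 and 0.05996 FPKM in the 3 untreated libraries, 2.27, 1.82 and 2.23 at 1 h and 39.3, 35.2 and 52.0 at 12 h. All libraries of a later time stood above all libraries of an earlier one, and the groups did not overlap. The mean was 0.106 ± 0.0776 FPKM in untreated cells, 2.10 ± 0.248 at 1 h and 42.2 ± 8.75 at 12 h (SD, n = 3 libraries, as throughout). The ratio of means was 19.9 for 1 h over untreated cells, 20.0 for 12 h over 1 h and 399.7 for 12 h over untreated cells. On the scale of log2(FPKM + 1), which understates ratios of low values, Il6 rose by 1.49 at 1 h (SE 0.109, limma with Benjamini-Hochberg adjustment over 5643 genes, adjusted p = 4.11e-08) and by 5.27 at 12 h (adjusted p = 1.42e-14). On this scale it was the 72nd largest increase among the 5643 tested genes at 1 h and the 7th largest at 12 h. The step between the times, 3.78 for 12 h minus 1 h, was the 6th largest of that comparison (adjusted p = 5.47e-13). The 1 h difference depends on the constant added before the logarithm, and with 0.1 in place of 1 it was 3.48 (adjusted p = 4.74e-09). With that constant the 12 h minus 1 h difference of Il6 was 4.25.

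Csf3, the main growth factor of neutrophils, had 0.0950, 0.0692 and 0.102 FPKM in untreated libraries, 0.995, 1.01 and 1.47 at 1 h and 73.3, 62.1 and 94.0 at 12 h. The groups did not overlap, and the rise between 1 h and 12 h was much larger than the rise within the first hour. Means were 0.0888 ± 0.0173 FPKM in untreated cells, 1.16 ± 0.272 at 1 h and 76.5 ± 16.2 at 12 h, so that the mean at 12 h was 861 times that of untreated cells and 66.0 times that at 1 h. Csf3 rose by 0.98 at 1 h (SE 0.116, adjusted p = 6.19e-06) and by 6.13 at 12 h (adjusted p = 6.66e-15), the 126th and the 3rd largest increase of these comparisons. The 12 h minus 1 h difference of 5.15 was the 2nd largest of all tested genes (adjusted p = 4.93e-14). At 1 h the log2 difference from untreated cells was 1.48 with a constant of 0.5 and 2.72 with 0.1.

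Osm, which macrophages release early in inflammation, was the only one of the 5 with more than 1 FPKM before LPS. It had 5.33, 5.30 and 5.65 FPKM in untreated libraries, 20.8, 20.8 and 19.4 at 1 h and 16.4, 15.9 and 19.3 at 12 h. Every LPS library stood above every untreated one, and the highest 12 h library lay just under the lowest 1 h library. Means were 5.43 ± 0.191 FPKM in untreated cells, 20.3 ± 0.827 at 1 h and 17.2 ± 1.83 at 12 h. Osm rose by 1.73 at 1 h (SE 0.0601, adjusted p = 6.20e-12), the 56th largest increase, and it was 1.49 above untreated cells at 12 h (adjusted p = 1.54e-11). Between the times it fell by 0.24, a small change that passed the test (12 h minus 1 h, adjusted p = 0.00211). Over all alternative settings this difference lay between -0.32 and -0.19, with a highest adjusted p of 0.0131.

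**Figure D2:**
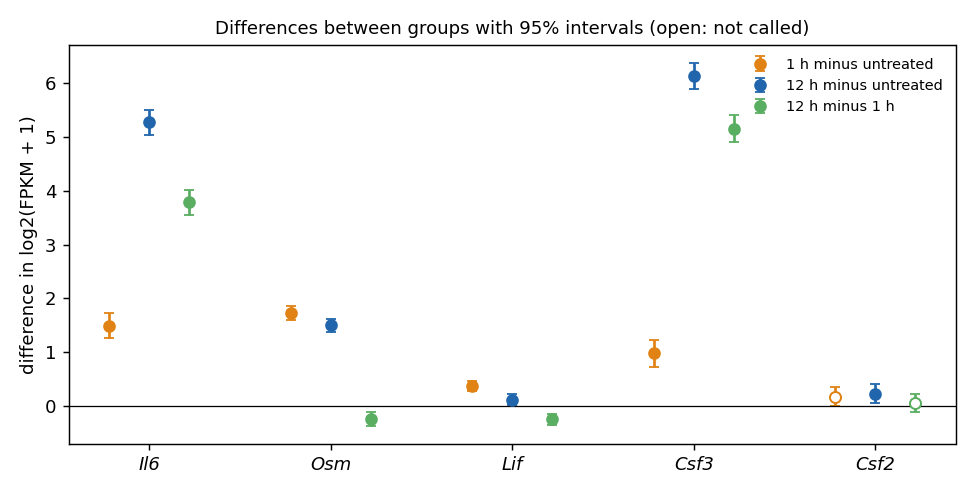
Log2 differences of log2(FPKM + 1) for the 5 genes, for 1 h minus untreated, 12 h minus untreated and 12 h minus 1 h, with 95% intervals from limma. Open symbols did not pass the test. Il6 and Csf3 have their largest differences at 12 h, at 5.27 and 6.13, and Osm and Lif lie below 0 in 12 h minus 1 h.

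All 3 genes that reached the level for testing were called higher at 1 h and at 12 h than in untreated cells. That level was a mean over all 9 libraries. Csf3, with means of 0.0888 FPKM in untreated cells and 1.16 at 1 h, reached it only through its 12 h libraries. Its 12 h call within this count is therefore no separate support. Of all 5643 tested genes, 24.1% were called higher and 34.9% lower at 1 h, and 41.1% higher and 40.6% lower at 12 h. In 12 h minus 1 h, Il6 and Csf3 were among the 41.9% of tested genes called higher and Osm among the 43.6% called lower. Calls were thus common in this table, and the sizes set Il6 and Csf3 apart more than the calls do. The share of all genes whose libraries do not overlap between groups was not counted. Lack of overlap is therefore not read as particular to the members. The median log2 difference over all tested genes was -0.03 at 1 h, 0.03 at 12 h and 0.01 for 12 h minus 1 h. Every gene of the table carries the deposited flag 1 and the highest deposited q-value is 0.09993, which means that the authors kept genes that differed between these libraries. For that reason an adjusted p-value here says nothing about the rate of false calls among all transcripts.

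Lif, which acts on many tissues and holds mouse embryonic stem cells undifferentiated, lay far below its genomic neighbor Osm. It had 0.0298, 0.0203 and 0.00671 FPKM in untreated libraries, 0.408, 0.218 and 0.328 at 1 h and 0.118, 0.0770 and 0.124 at 12 h. The groups did not overlap, with the 1 h libraries highest and the untreated libraries lowest. Because 1 fragment is worth a fixed FPKM in each library, these values can be read as whole fragments: 4, 3 and 1 in untreated libraries, 64, 32 and 48 at 1 h and 18, 12 and 18 at 12 h. The sums were 8 fragments in untreated cells (95% exact Poisson interval 3.45 to 15.8), 144 at 1 h (121.4 to 169.5) and 48 at 12 h (35.4 to 63.6). Adjusted for depth, Lif was 17.2 times as abundant at 1 h as in untreated cells (8.51 to 40.7) and 5.67 times at 12 h (2.66 to 13.9), and at 12 h it was 0.329 times its 1 h level (0.232 to 0.459). The intervals cover counting error only, and the fragment numbers are the smallest whole numbers that give the deposited values.

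Lif lay below the level for testing and was fitted in a model of all 6462 genes, in which 20.9% were called higher at 1 h, 38.9% higher at 12 h and 41.3% lower at 12 h than at 1 h. It rose by 0.37 at 1 h (SE 0.0452, limma, adjusted p = 9.2e-05) and by 12 h had come down again (12 h minus 1 h -0.25, adjusted p = 0.000479). Its 12 h level was 0.12 above untreated cells (adjusted p = 0.0341), and this call depended on single libraries and on the family of tests. It was lost without untreated library 1 (adjusted p = 0.0582), 2 (0.0705) or 3 (0.0905), without 12 h library 1 (0.0839) or 3 (0.0941), and when p-values were adjusted for the 21878 genes implied by the deposited ranks, called the wider family of tests from here on (0.115). Leaving out any 1 library kept this difference between 0.11 and 0.14. With a constant of 0.1 the differences were 1.79 at 1 h, 0.79 at 12 h and -1.001 for 12 h minus 1 h, and all 3 passed. With 0.5 they were 0.65, 0.22 and -0.43.

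Csf2, which supports the growth of macrophages and of microglia in culture, was the least abundant by its mean in untreated cells and at 1 h. It had 0, 0.0402 and 0 FPKM in untreated libraries, 0.151, 0.0805 and 0.2002 at 1 h and 0.0383, 0.339 and 0.201 at 12 h. These are 0, 1 and 0 fragments in untreated libraries, 4, 2 and 5 at 1 h and 1, 9 and 5 at 12 h, so every 1 h library lay above the untreated ones while 12 h library 1, with 1 fragment, equaled the highest untreated library. In the libraries without a fragment the limit that a count of 0 allows, taken as 3 fragments, was 0.131 and 0.118 FPKM. The sums of 11 fragments at 1 h (5.49 to 19.7) and 15 at 12 h (8.40 to 24.7) stood against 1 in untreated cells (0.0253 to 5.57). Per depth the ratio to untreated cells was 10.5 at 1 h (1.53 to 453.1) and 14.2 at 12 h (2.18 to 596.8), and the 12 h level was 1.35 times the 1 h level (0.578 to 3.24), an interval that includes equality and changes of more than 1.5 times either way.

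In the fit of all genes Csf2 was 0.17 above untreated cells at 1 h, which did not pass (SE 0.0768, limma, adjusted p = 0.0799), and 0.23 at 12 h, which did (adjusted p = 0.0197). The 12 h minus 1 h difference of 0.05 did not pass (95% interval -0.12 to 0.23, adjusted p = 0.532). Each of these calls turned with single libraries or settings. The 12 h call was lost without untreated library 1 (adjusted p = 0.0589) or 3 (0.0583), without 12 h library 2 (0.14, adjusted p = 0.0671) or 3 (0.0546), with array weights (0.18, adjusted p = 0.0548) and in the wider family of tests (0.0666). The 1 h difference passed without 12 h library 1 (adjusted p = 0.0149) or 2 (0.0279), in a fit of only the 6 libraries compared (0.0108) and with a constant of 0.1 (1.09, adjusted p = 0.0259). Without 12 h library 1, Csf2 was 0.15 higher at 12 h than at 1 h (adjusted p = 0.0291), and without 12 h library 2 the difference was -0.03. With a constant of 0.1 the 12 h difference from untreated cells was 1.23, and with 0.5 it was 0.41.

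**Figure D3:**
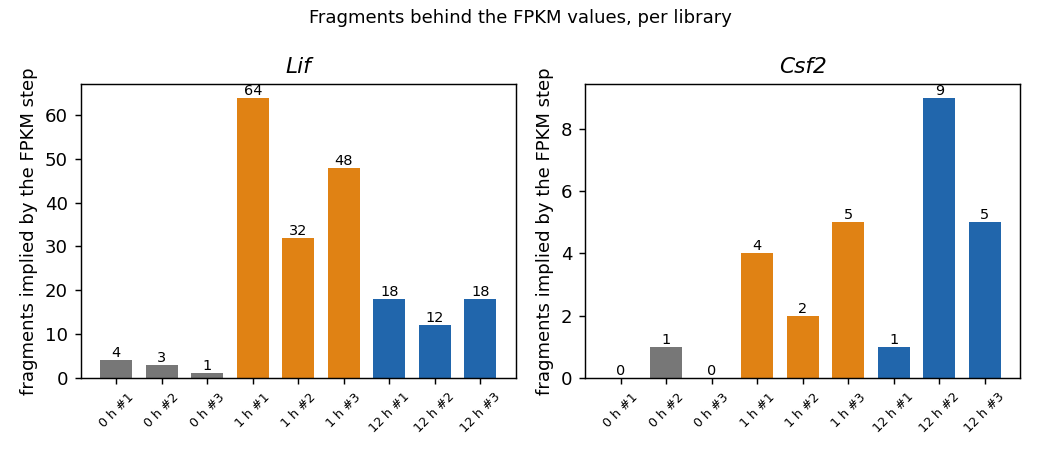
Number of sequenced fragments of Lif and Csf2 in each of the 9 libraries, by group, on whole numbers recovered from the steps of the FPKM values. Lif has 32 to 64 fragments in the 1 h libraries, and Csf2 has at most 9 in any library.

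By level, the order of the 5 genes changed with time. In untreated cells Osm stood above Il6 and Csf3, whose libraries overlapped, and those stood above Lif and Csf2, whose libraries overlapped as well. At 1 h the order by FPKM was Osm, Il6, Csf3, Lif and Csf2, with no overlap between neighbors. At 12 h it was Csf3, Il6 and Osm, again without overlap, while Lif and Csf2 lay far below and overlapped. By mean FPKM Csf3 ranked 6072nd among the 6462 listed genes in untreated cells, 5521st at 1 h and 532nd at 12 h, and Il6 ranked 6054th, 5192nd and 1048th. Osm ranked 4311th, 1976th and 2270th at these times.

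The late genes were set against the early ones within each library, as a difference of log2(FPKM + 1). Il6 against Osm stood at -2.54 ± 0.124 in untreated cells, -2.78 ± 0.151 at 1 h and 1.24 ± 0.144 at 12 h, and Csf3 against Osm at -2.56 ± 0.0305, -3.31 ± 0.233 and 2.08 ± 0.165. Il6 and Csf3 were thus below Osm in every untreated and 1 h library and above it in every 12 h library. Against Lif, which is near 0 on this scale, Il6 stood at 0.12 ± 0.0865 in untreated cells, 1.24 ± 0.0391 at 1 h and 5.27 ± 0.257 at 12 h, and Csf3 at 0.10 ± 0.0322, 0.71 ± 0.198 and 6.11 ± 0.269. The differences against Lif therefore mostly follow the level of Il6 or Csf3 alone. The steps from untreated cells to 1 h depend on this scale and are not read as changes in ratio. By ratio of mean FPKM over that step, the value for Csf3 was below that for Lif, and the value for Il6 somewhat above it. This order is not established. In untreated cells Csf3 rests on 15 fragments and Lif on 8, and the 95% counting intervals of their rises overlap widely. The untreated Il6 libraries spread from 0.05996 to 0.195 FPKM. Il6 and Csf3 both rose more than Osm by that measure, although their differences from Osm fell. From 1 h to 12 h the 4 differences grew by 4.02, 5.39, 4.03 and 5.40. In each case the 3 libraries at 12 h lay above the 3 at 1 h, which gives p = 0.1 in an exact two-sided permutation test, the smallest p that 3 against 3 libraries allow (0.1 after adjustment over the 4 ratios). The direction was known when the pairs were chosen, so this is a description.

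**Figure D4:**
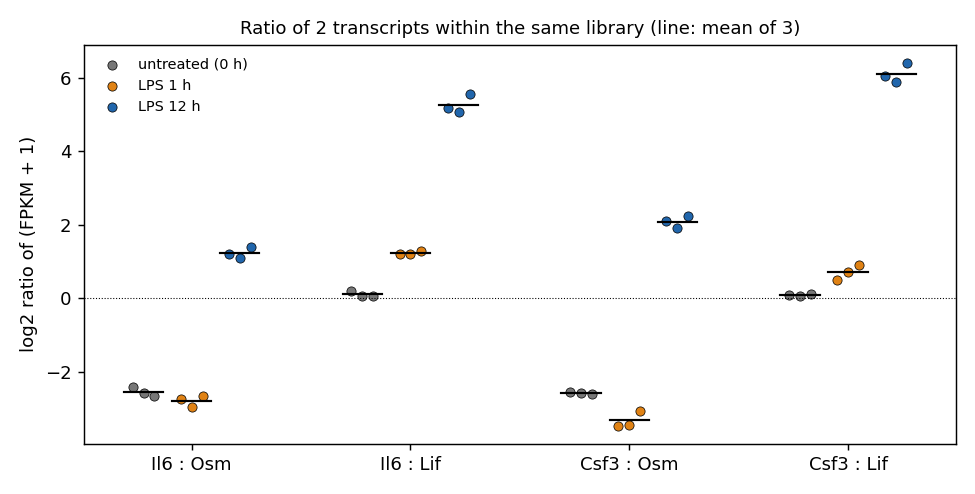
Difference in log2(FPKM + 1) between a late gene (Il6 or Csf3) and an early gene (Osm or Lif) within each of the 9 libraries, by group, with a line at the group mean. The values against Osm are below 0 in untreated and 1 h libraries and above 0 in all 12 h libraries.

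The 12 h libraries varied more in these genes than in most genes of similar level. The coefficient of variation over the 3 libraries was 20.7% for Il6, 21.2% for Csf3 and 10.7% for Osm, against a median of 3.09% over the 3033 genes with a 12 h mean between 10 and 200 FPKM. Of those genes, 99.9% had a lower coefficient than Il6 or Csf3 and 98.6% a lower one than Osm. All 3 were highest in 12 h library 3 and lowest in 12 h library 2, an order found in 21.2% of the genes of that level. Leaving out any of the 9 libraries in turn changed neither the direction nor the call of Il6, Csf3 or Osm in any comparison.

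Il6 and Csf3 varied together at 12 h. The ratio of Csf3 to Il6 in FPKM was 1.86, 1.76 and 1.81 in the 12 h libraries, a mean of 1.81 ± 0.0510 with a coefficient of variation of 2.81%, although each gene alone varied by more than 20%. At 1 h the ratio was 0.438, 0.554 and 0.662, so Csf3 was the lower of the pair in every library. In untreated cells, where Csf3 rests on 15 fragments in all, it was 0.487, 1.13 and 1.70 and showed no fixed order.

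The genes whose course was most like that of Il6 over the 9 libraries, by Pearson's r of log2(FPKM + 1) among 548 genes whose group means spanned at least 1, were Lcp2 (r = 0.9993), Slc7a11 (0.9988), Srxn1 (0.9983), Ccl7 (0.9979) and Hspa5 (0.9972). Slc7a11, a cystine transporter, had 6.70 ± 0.151 FPKM in untreated cells, 13.5 ± 0.748 at 1 h and 72.0 ± 5.42 at 12 h, and the chemokine gene Ccl7 had 4.16 ± 1.01, 14.5 ± 1.04 and 377.4 ± 55.4. Most like Csf3 were Il1rn (0.9988), which encodes the interleukin-1 receptor antagonist, Slpi (0.9988), a protease inhibitor, Degs1 (0.9985), Lcn2 (0.9977), which binds bacterial siderophores, and Aars (0.9976). Lcn2 had 0.366 ± 0.218 FPKM in untreated cells, 1.56 ± 0.230 at 1 h and 227.8 ± 23.3 at 12 h. Among the most like Osm were C5ar1 (0.9979), the receptor for complement C5a, Ier3 (0.997), Tnf (0.9963) and Ets2 (0.996). Among the members r was 0.9911 for Il6 with Csf3, 0.6249 for Il6 with Osm and 0.5197 for Csf3 with Osm. The 9 libraries form 3 groups, so r mostly reflects 3 group means and is a description. Nor does r reflect the size of a change. Hspa5 had 322.3 FPKM in untreated cells and 659.6 at 12 h, and Aars 38.5 and 81.9, much smaller rises than those of Il6 and Csf3. Likeness was ranked with a constant of 1 only, which understates ratios of low values such as those of Il6 and Csf3 before LPS.

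Genes beside Il6, Osm and Csf3 that are no members themselves and were in the table had smaller differences from untreated cells than these 3. Other neighbors were not in the table, among them Tyms beside Il6, Castor1 beside Osm and Thra beside Csf3. Tbc1d10a, which lies close to Osm on its other side, rose by 0.39 at 1 h (limma, adjusted p = 3.74e-05) but missed the threshold at 12 h (0.02, adjusted p = 0.759). The neighbors of Csf3 were Psmd3, a proteasome subunit gene, which rose by 0.36 at 12 h (adjusted p = 1.23e-08), and Med24, a Mediator subunit gene, which missed it at 12 h (0.07, adjusted p = 0.196). Beside Il6, Dnajb6 rose by 0.11 at 1 h and 0.18 at 12 h, and Ube3c by 0.12 at both. These differences compare with 6.13 for Csf3 and 5.27 for Il6 at 12 h.

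Of 13 related ligand genes, 5 were in the table and 2, Ebi3 and Csf1, reached the level for testing, and these took different courses. Ebi3, a subunit of interleukin-27 and interleukin-35, had 4.50 ± 0.631 FPKM in untreated cells, 5.56 ± 0.250 at 1 h and 22.4 ± 0.602 at 12 h, a log2 rise of 0.26 by 1 h (adjusted p = 0.00386) that grew to 2.09 by 12 h (adjusted p = 1.04e-12). Csf1, the growth factor that microglia depend on, had 11.45 ± 0.453 FPKM in untreated cells, 29.9 ± 1.24 at 1 h and 9.48 ± 0.252 at 12 h. It rose by 1.31 at 1 h (adjusted p = 2.67e-12), and at 12 h it was 0.25 below untreated cells (adjusted p = 7.71e-05). Il27, which encodes the other subunit of interleukin-27, was below the level for testing, at 0.0732 FPKM in untreated cells, 0.159 at 1 h and 0.602 at 12 h, and was 0.57 higher at 12 h in the fit of all genes (adjusted p = 5.38e-05). Il34, also listed, had a mean under 1 FPKM in each group.

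Of 15 genes for receptor chains of these cytokines, 8 were in the table and 7 were tested. At 1 h the list held 1 gene called higher, 4 called lower and 2 without a call, and its median log2 difference was -0.11. At 12 h 2 were called higher and 5 lower, with a median of -0.40. Il6ra, the chain that binds interleukin-6, had 20.97 ± 1.53 FPKM in untreated cells, 14.35 ± 0.327 at 1 h and 10.45 ± 0.821 at 12 h, which is a fall of 0.52 (adjusted p = 3.10e-06) followed by one of 0.94 (adjusted p = 1.28e-09), both against untreated cells. Il6 and the gene for its own receptor chain thus went in opposite directions. Il6st, the shared chain gp130, had 16.5 ± 0.786 FPKM in untreated cells, 18.02 ± 0.323 at 1 h and 12.2 ± 0.247 at 12 h. It fell by 0.40 at 12 h (adjusted p = 3.68e-07). Its rise of 0.12 at 1 h (adjusted p = 0.0178) was lost without untreated library 2 (adjusted p = 0.0662) or 3 (0.0708), without 1 h library 1 (0.0546) and in the wider family of tests (0.0689).

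Among the receptors of colony-stimulating factors, Csf1r, by which microglia are maintained, had 66.1 ± 2.76 FPKM in untreated cells, 60.96 ± 0.471 at 1 h and 47.5 ± 1.03 at 12 h. It fell by 0.11 at 1 h, or by 0.19 under quantile normalization, and by 0.47 at 12 h. Csf2rb, the common β chain, fell by 0.44 at 1 h and 0.20 at 12 h, and Csf2rb2 by 0.43 and 0.58. Csf2rb and Csf2rb2 are near-identical copies, so the division of fragments between them is uncertain. Csf2ra and Csf3r went the other way at 12 h, with 0.19 for Csf2ra (adjusted p = 0.00179) and 0.23 for Csf3r (adjusted p = 0.0115), and neither passed at 1 h. Csf3r, the receptor of the Csf3 product, had only 1.93 ± 0.342 FPKM in untreated cells, 1.77 ± 0.0743 at 1 h and 2.43 ± 0.202 at 12 h. Its 12 h call was lost without untreated library 2 (adjusted p = 0.0553) or 3 (0.0564) or 12 h library 3 (0.0517), and under quantile normalization the difference was 0.38. Osmr and Lifr, which encode the partner chains for oncostatin M and leukemia inhibitory factor, were among the listed genes absent from the table. Their levels are therefore not known here.

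Of 20 genes for JAK kinases, STAT factors and their brakes, 16 were in the table and 14 were tested. The list held 4 genes called higher, 3 lower and 7 without a call at 1 h (median 0.01), and 5 higher, 5 lower and 4 without a call at 12 h (median 0.03). Socs3, the brake on gp130 and granulocyte factor signaling, had 5.01 ± 0.373 FPKM in untreated cells, 11.3 ± 0.449 at 1 h and 31.1 ± 1.56 at 12 h, a rise of 1.03 at 1 h and 2.42 at 12 h. Stat3, the main factor downstream of gp130, had 11.5 ± 0.183 FPKM in untreated cells, 11.7 ± 0.528 at 1 h and 19.6 ± 0.380 at 12 h, so that it rose by 0.72 at 12 h and missed the threshold at 1 h (0.02, adjusted p = 0.737). Socs1 rose by 1.02 at 12 h (1.68 with a constant of 0.1) and Jak1 by 0.26 (0.17 under quantile normalization), and neither passed at 1 h. Socs4, Socs5 and Socs7 rose at 1 h, by 0.39, 0.21 and 0.24, and did not pass at 12 h, though Socs4 passed without 12 h library 3 (0.14, adjusted p = 0.0286).

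Stat5a and Stat5b, the factors used by the granulocyte-macrophage receptor, fell instead. Stat5a fell by 0.25 at 1 h and 0.62 at 12 h and Stat5b by 0.24 and 0.47. The 1 h call for Stat5a was lost under quantile normalization (-0.15, adjusted p = 0.0632). Pias1 and Pias3, inhibitors of STAT factors, fell by 0.34 and 0.35 at 12 h, with -0.16 for Pias3 under quantile normalization. The phosphatase gene Ptpn6 fell by 0.20 at 1 h and 0.09 at 12 h, and by 0.31 and 0.29 under quantile normalization. The 12 h call for Ptpn6 was lost without untreated library 1 (adjusted p = 0.0991), without 12 h library 3 (0.109), without a trend in the variance (0.0548) and in the wider family of tests (0.0921). Phosphorylation of JAK and STAT proteins was not measured.

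**Figure D5:**
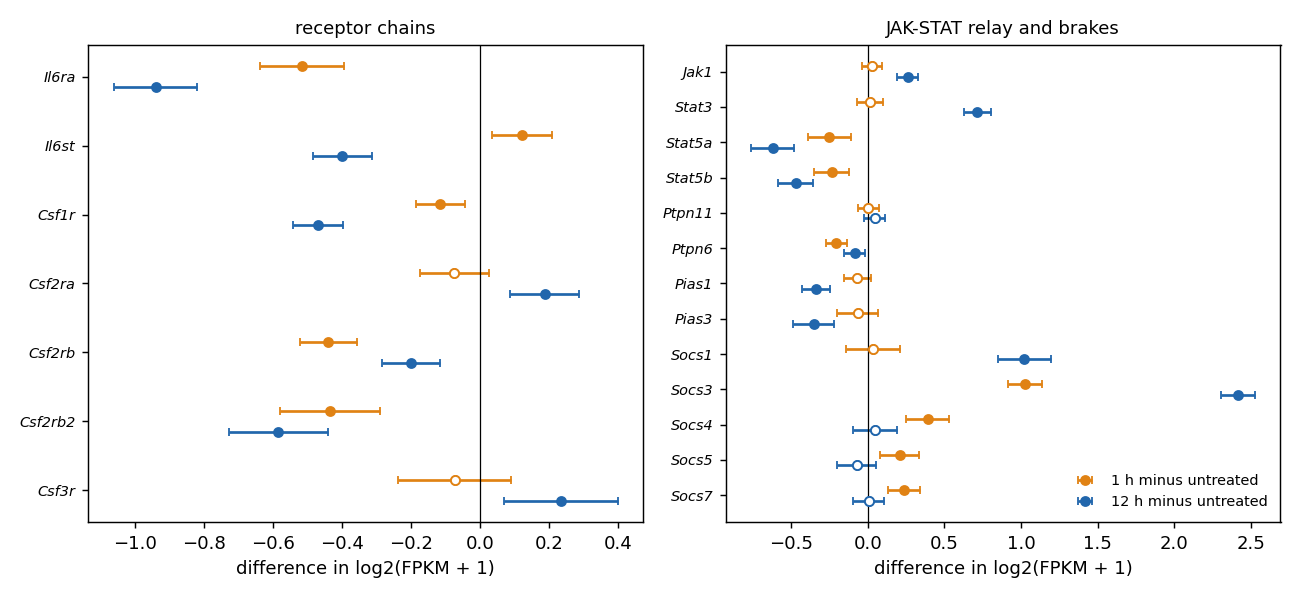
Log2 differences from untreated cells at 1 h and 12 h for 7 receptor chains and for most tested genes of the JAK-STAT relay and its brakes, with 95% intervals from limma. Open symbols did not pass the test. Il6ra falls by 0.94 at 12 h and Socs3 rises by 2.42.

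Of 20 genes known to respond to STAT3 or STAT5, 17 were tested, and 13 were called higher and 3 lower at 1 h, and 14 higher and 2 lower at 12 h, with a median of 0.91 at both times. At 1 h the largest were Pim1 (2.91), a survival kinase gene, Tnfaip3 (2.77), Saa3 (2.72), Junb (2.53), Ier3 (2.37) and Mcl1 (1.23), though with a constant of 0.1 Myc (2.10) and Lcn2 (1.93) exceeded Mcl1. At 12 h they were Lcn2 (7.39), Saa3 (6.06), Bcl3 (2.59), Cebpd (2.40), Ier3 (2.04) and Pim1 (1.54). Several of these are as well known for their response to NF-κB, Tnfaip3, Bcl3 and Ier3 among them. In 12 h minus 1 h the list was divided, with 9 genes called higher and 7 lower and a median of 0.21. The acute phase genes Lcn2 and Saa3, and Bcl3 and Cebpd, were among those called higher, as Il6 and Csf3 were. Pim1, Junb, Mcl1, Ier3 and Tnfaip3 were among those called lower. Il10ra fell by 0.73 at 1 h and 0.86 at 12 h while 3 genes fell at 1 time and rose at the other. Ccnd1 fell by 0.50 at 1 h and was 0.35 above untreated cells at 12 h (0.22 under quantile normalization), and Il4ra fell by 0.19 at 1 h and rose by 0.70 at 12 h. Bcl6 rose by 1.06 at 1 h and fell by 0.18 at 12 h. The 1 h call for Il4ra was lost under quantile normalization (adjusted p = 0.461), in the wider family of tests (0.0626) and without untreated library 3 (0.0665) or 1 h library 1 (0.0837). The 12 h call for Bcl6 was lost under quantile normalization (adjusted p = 0.482), in the wider family of tests (0.0610) and without untreated library 1 (0.0837) or 12 h library 3 (0.0830).

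Transcription factors known to act on the Il6 and Csf3 promoters, 21 of 22 tested, mostly rose early: 17 were called higher and 2 lower at 1 h, with a median of 1.09, and 16 higher and 3 lower at 12 h, with a median of 0.72. In 12 h minus 1 h, 7 were higher and 14 lower, with a median of -0.40. Nfkbiz, an atypical IκB protein needed for Il6 induction in macrophages, had 3.37 ± 0.356 FPKM in untreated cells, 293.5 ± 2.62 at 1 h and 36.5 ± 2.60 at 12 h, a log2 difference of 6.08 at 1 h and 3.10 at 12 h. Nfkbiz was thus highest at 1 h and Il6 at 12 h. After Nfkbiz the largest at 1 h were Junb (2.53), Atf3 (2.12), Relb (1.53), Jund (1.49) and Rel (1.40), and at 12 h Fosl1 (2.45), Cebpd (2.40), Atf4 (1.26), Relb (1.13) and Junb (0.91). Cebpd, a partner of C/EBPβ, had 7.32 ± 0.306 FPKM in untreated cells, 13.9 ± 1.04 at 1 h and 43.1 ± 1.93 at 12 h, and with Fosl1 and Atf4 was among the 7 that were higher at 12 h than at 1 h. Cebpa fell by 0.50 at 1 h and 0.81 at 12 h, and at 12 h Creb1 fell by 0.44 and Sp1 by 0.19. Fos fell by 0.27 at 1 h, a call that was lost under quantile normalization (adjusted p = 0.0976), in the wider family of tests (0.0595) and when untreated library 3 (-0.15, adjusted p = 0.0782) or 1 h library 1 (0.0621) was left out. At 12 h Fos was 0.25 above untreated cells (adjusted p = 0.0140), a call lost in the wider family (0.0542) and when 12 h library 2 (0.0504) or untreated library 2 (0.17, adjusted p = 0.0831) was left out, and it was 0.52 higher at 12 h than at 1 h (adjusted p = 5.53e-05). Junb, Cebpb and Cebpd stand in both of the last lists.

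Of 17 regulators of AU-rich and stem-loop mRNA decay, 14 were tested: 9 were called higher and 1 lower at 1 h (median 0.32), 5 higher and 5 lower at 12 h (median 0.06), and 1 higher and 11 lower in 12 h minus 1 h (median -0.33). Zfp36, which encodes the AU-rich element decay factor tristetraprolin, had 17.2 ± 1.27 FPKM in untreated cells, 89.97 ± 2.94 at 1 h and 38.7 ± 2.51 at 12 h, a rise of 2.33 at 1 h and 1.13 at 12 h. Zc3h12a, which encodes Regnase-1, an endonuclease that cleaves Il6 mRNA, had 1.77 ± 0.265 FPKM in untreated cells, 17.0 ± 0.488 at 1 h and 15.7 ± 1.12 at 12 h, a rise of 2.70 and 2.59. Zc3h12c rose by 2.41 at 1 h and 1.21 at 12 h, Btg2 by 2.41, Mapkapk2 by 0.79 and Rc3h1, a Roquin gene, by 0.46 at 1 h. Arid5a, a protein that protects Il6 mRNA, was the gene of the list called higher at 12 h than at 1 h, with a rise of 0.27 at 1 h and 0.57 at 12 h. At 12 h Zfp36l1 fell by 0.63, Khsrp by 0.32, Cnot1 by 0.32, Hnrnpd by 0.27 and Rc3h1 by 0.18 (0.12 under quantile normalization). Mapkapk2, the kinase that restrains tristetraprolin, rose by 0.60 at 12 h, or 0.39 under quantile normalization. At 12 h Btg2 missed the threshold (0.13, adjusted p = 0.110) but passed it under quantile normalization (0.28) and without untreated library 1 (0.20) or 12 h library 1 (0.19). Decay rates were not measured.

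The relative depth of the libraries, from the steps of low FPKM values, lay between 1.0 and 1.11 in untreated cells, between 1.09 and 1.17 at 1 h and between 1.09 and 1.16 at 12 h, against untreated library 1. Summed over all listed genes, a library had 195872 to 198075 FPKM without LPS, 203515 to 205413 after 1 h and 223720 to 228207 after 12 h. Of 13 microglia and macrophage markers, 11 were in the table, and their summed level was 1350 to 1450 FPKM without LPS, 1419 to 1454 after 1 h and 1400 to 1481 after 12 h, ranges that overlap. Of these 11, 2 were called higher and 7 lower at 1 h, and 4 higher and 6 lower at 12 h. The sums thus join rises and falls and mostly follow the abundant markers, and their overlap does not show that single markers were steady. None of 7 astrocyte and 6 neuron markers was in the table, and of 6 oligodendrocyte markers only Olig2 was, at 0.0841 FPKM in 1 untreated library and 0 in the other 8. The table holds only genes that the authors kept as differing, so absence from it does not show that a gene was not expressed. The microglia markers Aif1 and Ptprc were absent as well. Whether cells of another type took part in the results was not tested.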

How the data were processed

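RNA of 9 libraries of BV2 cells was sequenced from TruSeq Stranded mRNA libraries, per the labels' protocols. The authors deposited 1 table with FPKM per gene and library, and no further scaling is stated. Per the file headers it also holds a p-value, a q-value, a rank score and a flag for each gene, whose test is not given in the sources used here and which were not used to call genes. Trimmomatic, HISAT2, Cufflinks, DESeq and HTSeq are named in the submitters' processing notes without versions, as is the build GRCh38, although the symbols and accessions are those of mouse, so no gene positions were taken from them. Printed sequence positions come from GRCm38 references.

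Here FPKM were compared as log2(FPKM + 1) with limma 3.58.1 in R 4.3.3 (empirical Bayes with a variance trend, all 3 groups in 1 fit without a replicate block). Genes with a mean of at least 1 FPKM were tested (5643; 819 lay below), with Benjamini-Hochberg adjustment and a threshold of 0.05. Lif and Csf2 were read from the same fit without the filter. Read counts are not in the table. Low values fell on whole multiples of 1 fragment for 344 of 448 genes whose highest value was under 0.5 FPKM (tolerance 0.06 fragments or 0.5%), which gave relative depths, and for Lif, Csf2 and Csf3, but not Il6 and Osm, fragment numbers. The absolute depth is unknown. Fits and steps were tested on simulated data.

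The members, gene lists and pairs were chosen with earlier results of these data known. From each list, up to 6 called genes with the largest difference from untreated cells at each time are named, with every gene called against the sign of the list's median. A few genes that these rules name are not reported here. Likeness was ranked among genes with an assigned name and group means spanning at least 1. Alternatives were constants of 0.1 and 0.5, no filter or a mean of at least 5 FPKM, quantile and median-of-ratios scaling, no variance trend, array weights, fits of the 6 libraries compared alone, a block for library number, leaving out each library, and adjustment over the 21878 genes that the ranks imply. The comparisons of 1 h and of 12 h with untreated cells share the untreated libraries.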

Additional observations from a re-analysis of the deposited data

How the results depend on the processing

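Il6, Osm and Csf3 kept their direction and call in all 3 comparisons under every alternative, as did the counts of genes called (within 1.5 times) and the ratios of late to early genes in direction. Lif kept its direction in all 3 comparisons over the 18 alternatives that fitted it. Its calls at 1 h and for 12 h minus 1 h also held, with highest adjusted p of 0.00129 and 0.00424 (limma). The 12 h call of Lif and the calls of Csf2 did not hold under every alternative. For Csf2, the 1 h difference passed with a constant of 0.1 (1.09, adjusted p = 0.0259) and in a fit of only the 6 libraries compared (0.17, adjusted p = 0.0108), and the 12 h difference was lost with array weights (0.18, adjusted p = 0.0548). The wider family of tests (21878 genes) ended the 12 h calls of Lif (0.12, adjusted p = 0.115) and Csf2 (0.23, adjusted p = 0.0666). Leaving out 1 library gave 0.11 to 0.14 for Lif at 12 h, and for Csf2 0.14 to 0.21 at 1 h, 0.14 to 0.32 at 12 h and -0.033 to 0.15 for 12 h minus 1 h. Over the tested list genes, both times and all settings, 16 values gained a call, 27 lost one and 2815 did neither, and none was reversed. Libraries of the same number did not pair across groups (correlations of residuals -0.067 to 0.128), and with the number as a replicate block no call of the 5 genes changed, with 1338 genes higher and 1954 lower at 1 h, 2309 and 2282 at 12 h, and 2354 and 2453 for 12 h minus 1 h. Depth limits Csf2, with at most 9 fragments a library.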
